A study of Mus musculus with 87 samples.

Results

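The AP-1 family genes described here are the 8 genes Fos, Fosb, Fosl1, Fosl2, Jun, Junb, Jund and Atf3, chosen by their symbols among the 37991 genes whose transcripts were quantified by RNA-Seq in mouse livers. All 8 were in the table, and 7 of them passed the filter on low values, which asked for a log2 RPKM above -1.5 (about 0.354 RPKM, which is reads scaled to the length of the transcript and to the depth of the library) in at least 1 library. Fosl1 did not pass in any of the 80 libraries. Fosb passed in 7 libraries, all of them collected 1 h after surgery, so a difference of Fosb at 1 h was built into its passing.

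AP-1 is a dimeric transcription factor of the bZIP class, in which a Jun protein (Jun, Junb or Jund) pairs with another Jun, with a Fos protein (Fos, Fosb, Fosl1 or Fosl2) or with an ATF protein such as Atf3. The dimers bind short palindromic DNA elements. Several of the genes are immediate-early genes, whose transcripts appear quickly after growth factors, cytokines or stress act on a cell and are then rapidly degraded, and Jun is known from genetic work in mice to be needed for full liver regeneration.

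The study removed about 70% of the liver (partial hepatectomy, PH) from male C57BL/6 mice of 12 to 14 weeks at Zeitgeber Time (ZT) 2, that is 2 h after the lights came on, under isoflurane, after entrainment to 12 h of light with fasting and 12 h of dark with feeding. Post-PH livers form the groups X1, X4, X10, X20, X28, X36, X44, X48 and X72, named by the hours since surgery, and X1W and X4W, named by the weeks. Sham-operated mice had the abdomen opened under the same conditions with no resection, and their livers form the groups S1, S4, S10, S20 and S48. Livers of mice with no operation were taken at ZT2 (C0), at ZT6 (C4, the hour of the day of X4 and S4) and alongside the 4-week group (C4W). The number of livers analysed was 9 in C0, 6 in each of S1, X1, X10, X20 and X36, 5 in S4 and X48, 3 in C4, S10, S20, S48, X4, X28, X44, X72 and X1W, and 2 in C4W and X4W. Each library was made from the poly(A) RNA of a single liver, and no gene was altered in any group.

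Per the study's methods the mice were operated on in 3 periods. C0 spans all 3 of them, S1, S4, X1, X4, X10, X20 and X36 had mice in the first and the second, S48, X28, X44, X48, X72 and X1W belong to the first, S10, S20, C4W and X4W to the second, and C4 to the third. Which liver of a divided group belongs to which period is not given in the sources used here. For a fit with the period as a covariate, added after the data had been seen, the replicate numbers of these groups were taken in threes in the order of the periods, so that 1 to 3 stand for the first, 4 to 6 for the second and 7 to 9 for the third. In the 7 groups that this divides, livers assigned to the same period correlated more closely across all genes than livers of different periods (mean Pearson's r of 0.989 and 0.976 in C0). The X4 livers analysed are all numbered 4 to 6 and so stand for the second period alone, while the S4 livers stand for the first and the second. Calls against C0, against C4 and between times that rest on different periods are given with the period as a covariate where it changes them.

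The depth recovered from the spacing of low RPKM values ran from 12.2 M to 49.0 M reads, with a median of 26.8 M. All 7 hepatocyte markers were detected in every group, and none of the 5 markers of pancreatic acinar cells was. A liver holds several cell types, so that a change in the number of cells of a type and a change in the RNA per cell cannot be told apart in these data. Summed markers of neutrophils and macrophages varied within and between groups. The summed RPKM of the 9 neutrophil markers, 8 of which were detected, was 0.361 to 50.2 in C0 (median 1.06), 2.44 to 11.2 in S1, 8.58 to 19.7 in X1, 7.04 to 43.4 in S4 and 4.56 to 9.88 in X4, and 3 of the 9 (Ly6g, Mpo and Ltf) were listed at 0 in every X1 library. The summed RPKM of the 8 macrophage markers was 9.71 to 153 in C0 (median 25.3), 14.0 to 33.9 in X1 (median 21.2), 11.8 to 15.1 in X4, 36.9 to 61.4 in S48 and 29.1 to 53.9 in X48. For both lists the C0 range covered the other ranges given here. The highest C0 values of both lists came from C0 replicate 8. The part of these cells in the results below was not tested.

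The genes are spread over 7 chromosomes of the mm9 genome. Fos lies on chromosome 12 (86814840 to 86818223, plus strand), Fosb on chromosome 7 (19888070 to 19895394, minus strand), Fosl1 on chromosome 19 (5447703 to 5455945, plus strand) and Fosl2 on chromosome 5 (32438845 to 32460204, plus strand), each with 4 exons. Jun (chromosome 4, 94715725 to 94718913, minus strand), Junb (chromosome 8, 87500811 to 87502617, minus strand) and Jund (chromosome 8, 73221638 to 73224515, plus strand) each have 1 exon, so no intron separates their reads from those of unspliced RNA. Atf3 lies on chromosome 1 (192994175 to 193007219, minus strand) with 4 exons. Fosl1, Jun and Jund each overlap a gene of the opposite strand, and none overlaps a gene of the same strand. The libraries and the counting were strand-specific.

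Because the results turn on how quickly transcripts rose after surgery, the 250 bases before the annotated start are shown for the 3 members whose upstream window held an element of the AP-1 and CREB type among those searched. The windows are from RefSeq on GRCm38.p6, another build than the expression table's, at chr12:85473640-85473889 (plus strand) for Fos, chr4:95052223-95052472 (minus strand) for Jun and chr1:191183334-191183583 (minus strand) for Atf3. Capitals mark TGACGT and the TATA element TATAAA in Fos, CCAAT and TGACATCA in Jun, and TGACGT read on the opposite strand in Atf3.
Fos: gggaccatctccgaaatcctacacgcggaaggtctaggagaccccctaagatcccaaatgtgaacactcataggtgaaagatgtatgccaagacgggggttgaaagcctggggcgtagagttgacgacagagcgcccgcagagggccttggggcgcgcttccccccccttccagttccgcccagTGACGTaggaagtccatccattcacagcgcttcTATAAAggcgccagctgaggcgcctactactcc
Jun: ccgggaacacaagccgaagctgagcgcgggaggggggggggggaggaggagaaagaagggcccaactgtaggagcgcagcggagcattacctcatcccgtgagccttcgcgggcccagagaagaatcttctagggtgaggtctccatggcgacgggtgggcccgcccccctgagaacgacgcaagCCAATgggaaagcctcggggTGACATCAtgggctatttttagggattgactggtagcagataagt
Atf3: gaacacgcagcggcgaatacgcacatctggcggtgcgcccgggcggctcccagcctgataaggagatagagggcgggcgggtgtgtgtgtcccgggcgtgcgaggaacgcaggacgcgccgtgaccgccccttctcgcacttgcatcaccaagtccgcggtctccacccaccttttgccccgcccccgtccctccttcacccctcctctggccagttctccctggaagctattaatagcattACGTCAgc

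In the Fos window TGACGT covered bases -66 to -61 from the start and TATAAA bases -33 to -28. In the Jun window CCAAT covered bases -65 to -61 and TGACATCA, an AP-1-like element of the Jun promoter, bases -45 to -38. In the Atf3 window TGACGT covered bases -8 to -3. Windows were found for 7 of the 8 members, and all letters were searched on both strands. TGACGT occurred in 2 of the 7 windows and in 6.46% of the 32817 windows of all genes, TGACATCA in 1 of 7 and 2.93%, TATAAA in 1 of 7 and 12.4%, and CCAAT in 2 of 7 (Jun and Junb) and 33.8%. TGACTCA, found in 4.46% of all windows, TGACGTCA, which contains TGACGT and was found in 1.55%, and the CArG box, found in 1.47%, were in none of the 7. These matches describe letters in the window and no binding was measured. Only these 250 bases were searched, so an element missing here, the CArG box among them, may lie outside the window.

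RPKM values are per length and can be set side by side between genes. In the resting C0 livers the mean RPKM was 12.7 for Jund, 10.7 for Junb, 3.35 for Jun, 1.04 for Fosl2, 0.642 for Fos, 0.379 for Atf3, 0.0265 for Fosb and 0.0202 for Fosl1. One hour post-PH it was 25.3 for Jund, 20.3 for Junb, 11.5 for Jun, 10.7 for Atf3, 3.51 for Fosl2, 2.57 for Fos, 0.737 for Fosb and 0.0894 for Fosl1. Atf3 thus stood below Fos and Fosl2 in the resting liver and above both in X1, and by their means the 3 Jun genes were the most abundant members in both groups.

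**Figure D1:**
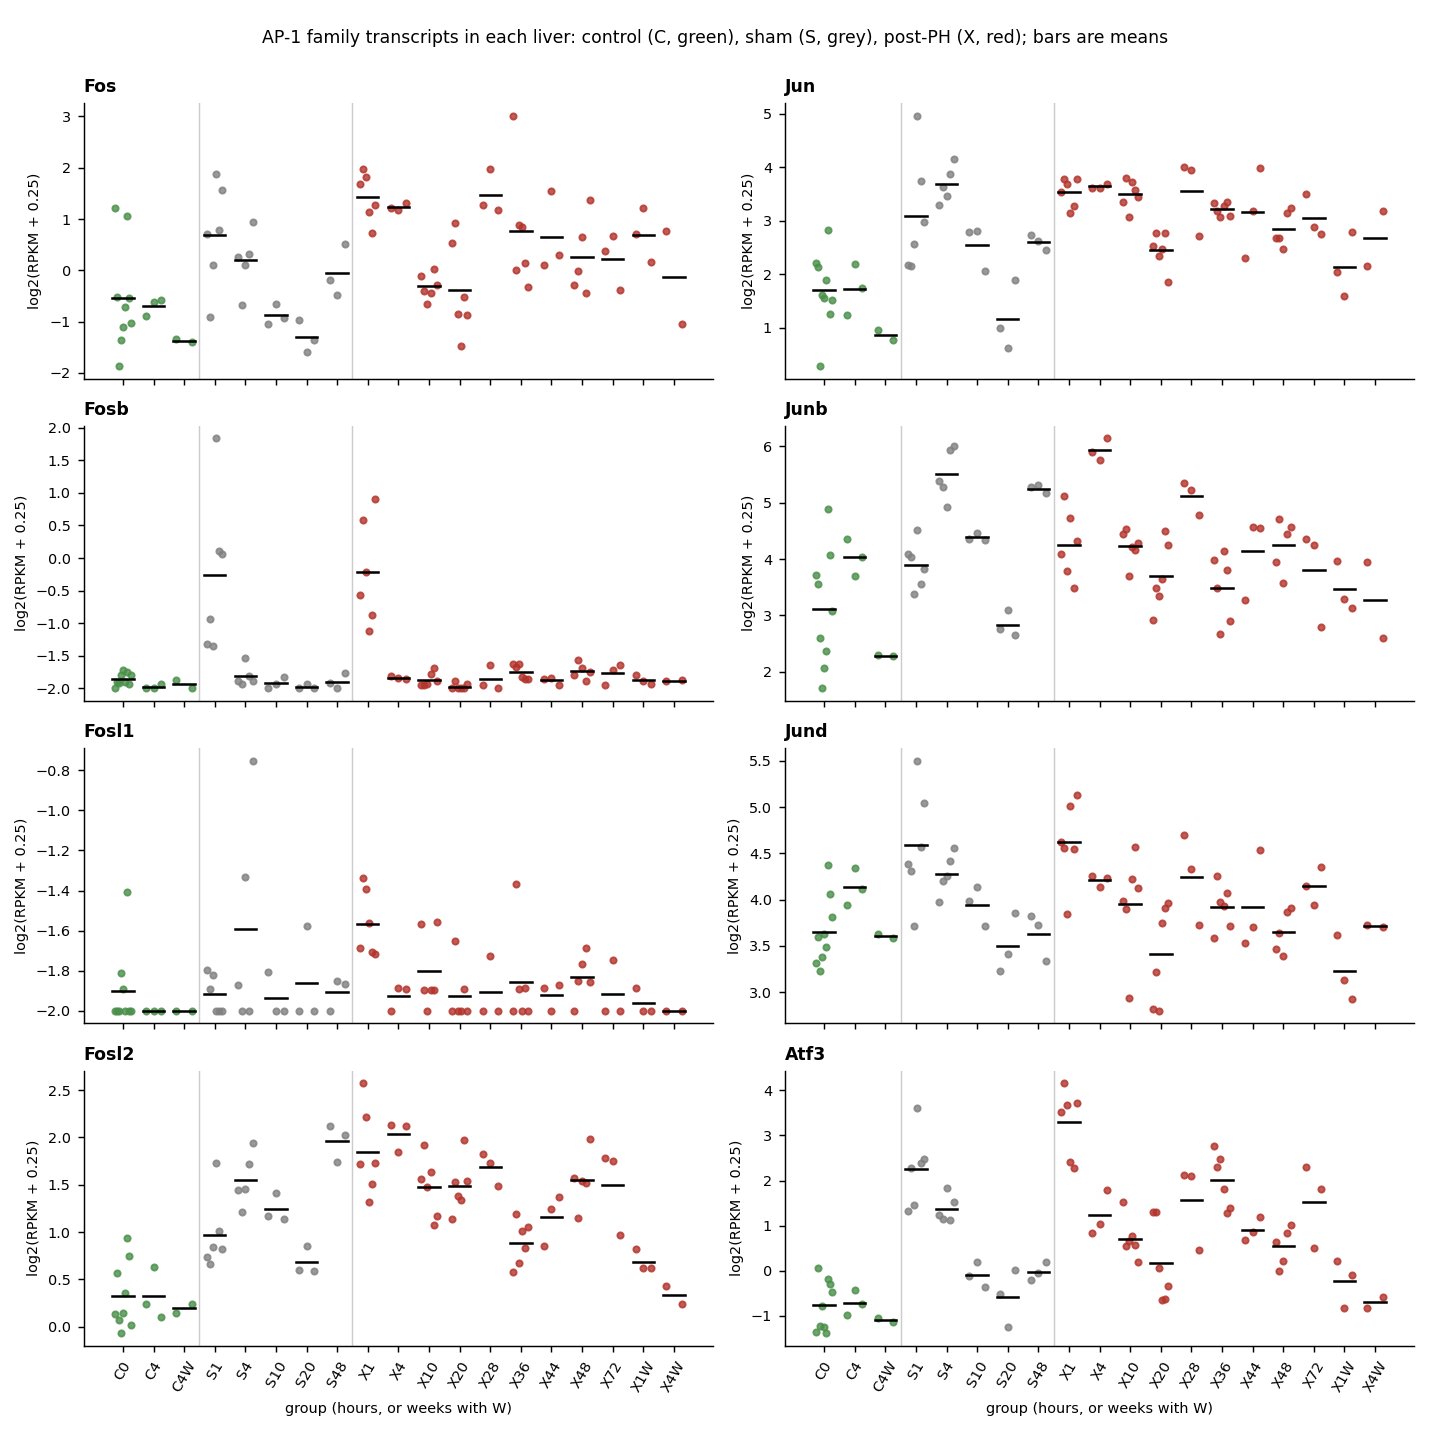
Transcript level of each AP-1 family gene in every liver, as log2(RPKM + 0.25), by group; points are single livers and black bars group means. The mean of Atf3 is highest in X1 (10.7 RPKM) and lies above that of C0 (0.379 RPKM) at X28 to X72, Junb is highest in X4 (53.6 to 70.6 RPKM), and Fosb leaves its baseline only in S1 and X1. Each panel has its own vertical scale.

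Differences between groups were tested with limma on log2(RPKM + 0.25) over all 15396 genes that passed the filter, and a gene was called when its adjusted p was under 0.05 and its log2 fold change was beyond 0.5. Fold changes of low genes are understated on this scale. The comparisons with C0 all share the same 9 livers. Against C0, all 7 members tested were called higher in X1, where 4.85% of all genes were called higher, and all 7 were called higher in S1, where 2.44% were. Fosb, which passed the filter only through these livers, is among them. In X4, 5 were higher (Fos, Fosl2, Jun, Junb and Atf3; 11.2% of all genes), and in S4 also 5 (Fosl2, Jun, Junb, Jund and Atf3; 11.7%). In X10, 4 were higher (Fosl2, Jun, Junb and Atf3; 21.2% of all genes), and in S10 3 were (Fosl2, Jun and Junb; 17.9%).

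In X20, 3 members were higher than in C0 (Fosl2, Jun and Atf3; 16.5% of all genes), and in S20 none was (7.85% of all genes), none of them at an unadjusted p under 0.05 either. In X28, 5 were higher (13.6% of all genes), in X36 4 (25.7%), in X44 5 (30.8%), in X48 4 (30.5%) and in X72 3 (26.6%). In S48, 2 were higher, Fosl2 and Junb (3.83% of all genes). One week post-PH only Fos was called (12.4% of all genes), and 4 weeks post-PH no member was (3.53% of all genes; 1 member, Jun, had an unadjusted p under 0.05). No member was called lower than C0 in any of the 16 comparisons with all C0 livers. Over all of them, 41 of 77 tests of a member post-PH and 17 of 35 after sham surgery were called. The median gene of all tested moved by up to 0.24 on the log2 scale in these comparisons, from -0.20 in X4 to 0.24 in X48. Against C0 replicates 7 to 9 alone, Jund was called lower in X20 and X1W (log2 -0.67 and -0.85, adjusted p = 0.034 and 0.025). Junb was called lower in S20 against the same livers (log2 -1.17, adjusted p = 0.018).

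**Figure D2:**
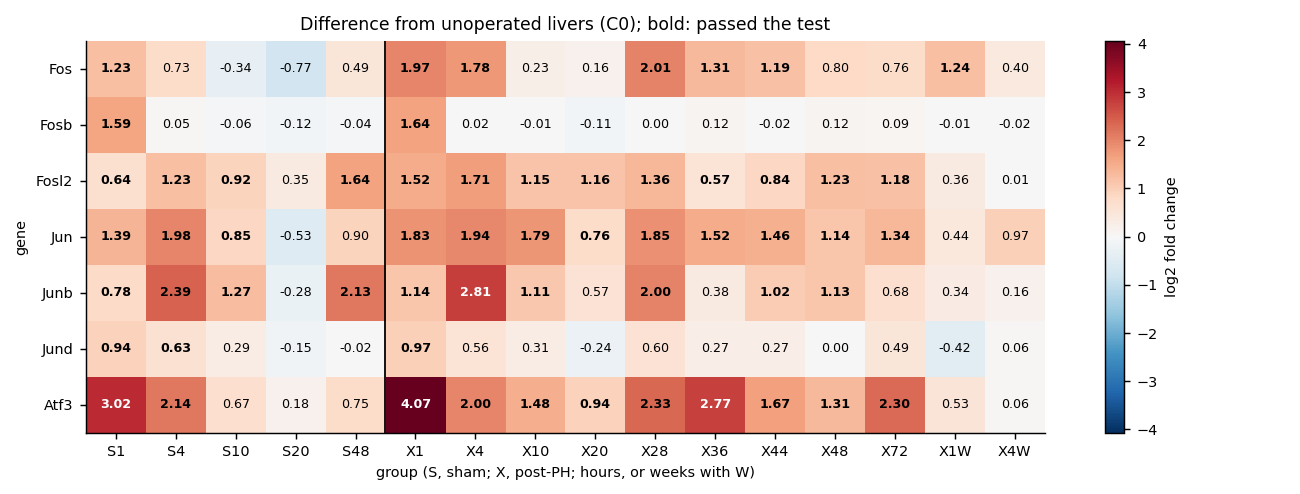
Log2 fold change of the 7 members tested against the 9 unoperated C0 livers, in 5 sham and 11 post-PH groups; bold values passed the test. Values run from -0.77 (Fos in S20) to 4.07 (Atf3 in X1), and Atf3, Jun and Fosl2 were called in each group from X1 through X72, although with all libraries scaled to the same median Fosl2 in X36 and X44 and Jun in X20 were not. Against C0 replicates 7 to 9 alone, Fosl2 in X36, Jun in X20 and Atf3 in X20 and X48 were not called.

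Fos, the founding member of the Fos proteins, cannot form DNA-binding dimers with itself and works through a Jun partner. Its RPKM in C0 was lowest at 0.0246, had a median of 0.358 and reached 2.08 (2 to 125 estimated reads), with C0 replicates 1 and 7 at 2.08 and 1.85 and the other 7 at or below 0.446. In S1 the lowest, median and highest values were 0.282, 1.43 and 3.45, and in X1 they were 1.41, 2.55 and 3.69. The high C0 livers lay inside the X1 range, so the groups overlapped. Fos rose 3.93-fold in X1 (log2 1.97 ± 0.39 SE, adjusted p = 4.8e-05) and 2.35-fold in S1 (log2 1.23 ± 0.39, adjusted p = 0.015), and the S1 call was lost without S1 replicate 4 (log2 0.99, adjusted p = 0.056). The S1 call was also lost in the libraries numbered 1 to 3 (log2 0.36, adjusted p = 0.68). A fit on the 2 groups alone (adjusted p = 0.13) and C0 replicates 7 to 9 alone (log2 0.86, adjusted p = 0.17) lost it too. The 3 X4 livers held 2.08, 2.02 and 2.22, a narrow range above all 5 S4 livers (0.954, 0.374, 0.831, 0.996 and 1.68).

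At 10 and 20 h Fos lay within the range of the C0 livers. The X10 livers ranged from 0.381 to 0.772 and the X20 livers from 0.11 to 1.63, with log2 differences from C0 of 0.23 and 0.16 that did not pass (adjusted p = 0.64 and 0.76). A later rise was measured at the same hour of the day as X4. The X28 livers held 2.15, 3.66 and 2.00 RPKM, a 4.02-fold difference from C0 (log2 2.01 ± 0.49, adjusted p = 0.00069). In X36 Fos ran from 0.553 through a median of 1.20 to 7.83, the last in X36 replicate 1 alone (log2 1.31 against C0, adjusted p = 0.0030). The X36 call was lost in a fit on the 2 groups alone (adjusted p = 0.061) and against C0 replicates 7 to 9 alone (log2 0.94, adjusted p = 0.10). In X44 the values were 0.829, 2.65 and 0.974 and the call (log2 1.19, adjusted p = 0.036) was lost without X44 replicate 2 or without C0 replicate 3, 4, 5 or 9 (adjusted p = 0.054 to 0.30). In X1W they were 1.38, 2.08 and 0.87, and the call (log2 1.24, adjusted p = 0.045) was lost when C0 replicate 3, 4, 5, 6, 8 or 9 or any X1W liver was left out (adjusted p = 0.052 to 0.21) and with the period as a covariate (log2 1.31, adjusted p = 0.064).

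Fosb, a close relative of Fos, was all but absent outside the 1 h groups. In C0 it was listed at 0 in replicate 1 and reached 0.0536 RPKM, or 0 to 6 estimated reads. In S1 the lowest, median and highest values were 0.143, 0.536 and 3.33 (19 to 248 reads), and in X1 they were 0.212, 0.517 and 1.63 (21 to 197 reads). Every S1 and X1 liver was above every other liver of the series, whose highest value was 0.0968 in S4 replicate 3. The log2 differences from C0 were 1.64 ± 0.22 in X1 and 1.59 ± 0.22 in S1. No p-value is given for them, because Fosb passed the filter only through livers of these groups. From 4 h on the log2 difference of Fosb from C0 was between -0.12 and 0.12 in all groups.

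Fosl1 (Fra-1), a Fos protein without the transactivation domain of Fos, was listed at 0 in 40 of the 80 libraries. Its highest RPKM was 0.344, in S4 replicate 5. The 6 X1 livers ranged from 0.0546 to 0.145 (2 to 7 estimated reads) and the 6 S1 livers from 0 to 0.0381 (0 to 3 reads). Every X1 liver was above every S1 liver (exact two-sided permutation test, p = 0.0022 with no adjustment, the smallest that 6 against 6 allows and 1 of 40 such tests over 8 members and 5 times), on so few reads that no fold is given.

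Fosl2 (Fra-2), the other short Fos protein, was among the 3 members called in every post-PH group from 1 to 72 h. In C0 its lowest, median and highest RPKM were 0.702, 0.859 and 1.67. In X1 they were 2.23, 3.06 and 5.71, above every C0 liver, and in S1 1.33, 1.53 and 3.07, which overlapped C0. Fosl2 rose 2.87-fold in X1 (log2 1.52 ± 0.16, adjusted p = 8.6e-12) and 1.56-fold in S1 (log2 0.64 ± 0.16, adjusted p = 0.0018), and the S1 call was lost without S1 replicate 4 (log2 0.49, adjusted p = 0.015). The S1 call was also lost with a pseudocount of 1 (log2 0.43) and in the libraries numbered 1 to 3 (log2 0.49, adjusted p = 0.058). Against C0 replicates 7 to 9 alone it was lost too (log2 0.40, adjusted p = 0.14). The X4 livers held 4.12, 3.35 and 4.09 and the S4 livers 2.47, 2.06, 2.49, 3.03 and 3.59, both sets above C0. Over the post-PH groups up to 72 h, its log2 differences from C0 lay between 0.57 in X36 and 1.71 in X4. With all libraries scaled to the same median the calls in X36 and X44 were lost (log2 0.27 and 0.43 in place of 0.57 and 0.84, adjusted p = 0.13 and 0.060), and that in X36 was also lost with a pseudocount of 1 (log2 0.37). The X36 call was lost against C0 replicates 7 to 9 alone as well (log2 0.32, adjusted p = 0.20).

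At 20 h the X20 livers (1.96 to 3.68, median 2.49) were all above the 3 S20 livers (1.26, 1.55 and 1.26). At 48 h the order of the groups was the opposite, with 4.11, 3.10 and 3.82 in S48 and 2.71, 1.97, 2.67, 2.61 and 3.71 in X48. Both 48 h groups were above C0 (log2 1.64 ± 0.20 in S48 and 1.23 ± 0.17 in X48, adjusted p = 4.8e-09 and 3.2e-09), at the hour of the day at which C0 was taken. One week post-PH the 3 livers held 1.51, 1.29 and 1.29 and the difference did not pass (log2 0.36, adjusted p = 0.16).

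Jun, the protein after which the Jun group is named and the strongest transactivator among the 3, had a C0 range of 0.972 to 6.89 RPKM (median 2.81). In X1 it ran from 8.62 through 12.0 to 13.5, above every C0 liver. In S1 it ran from 4.22 through 6.62 to 30.9, the last in S1 replicate 4, and overlapped C0. Jun rose 3.56-fold in X1 (log2 1.83 ± 0.28, adjusted p = 3.3e-07) and 2.63-fold in S1 (log2 1.39 ± 0.28, adjusted p = 0.00013). The S1 call was lost in the libraries numbered 1 to 3 (log2 0.75, adjusted p = 0.13) and in a fit on the 2 groups alone (adjusted p = 0.054). At 4 h the sham and post-PH values overlapped, with 12.0, 12.0 and 12.6 in X4 and 9.52, 12.1, 10.7, 14.3 and 17.6 in S4, all above C0.

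At 10 h the ranges of Jun in sham and post-PH livers did not overlap. All 6 X10 livers (8.16 to 13.6, median 11.1) were above the 3 S10 livers (6.68, 6.76 and 3.91). The X20 livers (3.39 to 6.61, median 5.40) lay above the S20 livers (1.75, 1.30 and 3.45) with an overlap of 1 X20 value. Against C0, Jun was called in every post-PH group up to 72 h, with log2 differences between 0.76 in X20 and 1.94 in X4. The X20 call was lost without C0 replicate 3 (log2 0.58, adjusted p = 0.066), with no filter, in a fit on the 2 groups alone, with scaling to the same median, in the libraries numbered 4 to 6 and against C0 replicates 7 to 9 alone (log2 0.55 to 0.76, adjusted p = 0.051 to 0.19). The S10 call (log2 0.85, adjusted p = 0.040) was lost without S10 replicate 1 or 2 or C0 replicate 3, 5, 8 or 9 (adjusted p = 0.050 to 0.17), and with the period as a covariate (log2 0.79, adjusted p = 0.086). The X4W livers held 4.22 and 8.86 and the C4W livers 1.70 and 1.47, and this difference did not pass (log2 1.80 ± 0.53, adjusted p = 0.51).

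Junb, which can oppose Jun at some promoters and is a common target of cytokine signalling, differed widely among the C0 livers. C0 replicates 1 to 3 held 12.8, 11.6 and 5.84 RPKM, replicates 4 to 6 held 3.00, 3.95 and 4.92, and replicates 7 to 9 held 29.5, 16.6 and 8.15. Its highest group means were those of X4 and S4, with 59.4, 53.6 and 70.6 in X4 and 41.4, 38.8, 30.1, 61.1 and 64.0 in S4, above every C0 and C4 liver. Against C0, Junb rose 7.04-fold in X4 (log2 2.81 ± 0.38, adjusted p = 5.0e-09) and 5.24-fold in S4 (log2 2.39 ± 0.32, adjusted p = 2.7e-09). At 1 h the differences were smaller and the groups overlapped, with 10.9 to 34.6 in X1 (median 18.3, log2 1.14, adjusted p = 0.0021) and 10.2 to 22.7 in S1 (median 15.1, log2 0.78, adjusted p = 0.048).

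The differences of Junb at 1 h and in several later groups depended on which C0 livers were used. Against C0 replicates 7 to 9 alone, the calls in X10, X44, X48 and S10 were lost (log2 0.21, 0.13, 0.24 and 0.37, adjusted p = 0.63, 0.83, 0.60 and 0.47). In fits on the 2 groups alone, those in X1, X44, X48 and S10 were lost (adjusted p = 0.068, 0.20, 0.054 and 0.11). Against C0 replicates 7 to 9 alone, the log2 difference was 0.24 in X1 and -0.11 in S1 (adjusted p = 0.61 and 0.86), while in the libraries numbered 4 to 6 it was 2.13 and 1.92 (adjusted p = 9.8e-05 and 0.00099). The S1 call was also lost without C0 replicate 3, 4, 5, 6 or 9 or S1 replicate 1, 2, 4 or 6 (adjusted p = 0.059 to 0.12). The X28 livers held 40.7, 37.1 and 27.2 and the X44 livers 9.46, 23.5 and 23.3, both called against C0 (log2 2.00 and 1.02, adjusted p = 1.9e-05 and 0.020), and the X44 call was lost without X44 replicate 2 or 3 (adjusted p = 0.14 and 0.13). With the period as a covariate Junb was also called in X20, X36 and X72 (log2 1.02, 0.83 and 1.16, adjusted p = 0.0050, 0.019 and 0.010). In S48 the values were 38.4, 39.3 and 35.9, all above C0 (log2 2.13 ± 0.38, adjusted p = 3.8e-05), and all above the X48 livers, which held 15.3, 25.9, 11.6, 21.5 and 23.5.

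Jund, the Jun gene that most resting tissues express, had the highest mean in C0, with 9.10, 11.8 and 20.5 RPKM as the lowest, median and highest values. In X1 these were 14.1, 23.9 and 34.9 and in S1 12.9, 22.1 and 45.1, so that both groups overlapped C0. Jund rose 1.95-fold in X1 and 1.91-fold in S1 (log2 0.97 ± 0.20 and 0.94 ± 0.20, adjusted p = 0.00012 and 0.00044). In S4 (15.4, 18.2, 18.8, 21.1 and 23.2) it was called (log2 0.63, adjusted p = 0.010), and in X4 (18.8, 17.3 and 18.6) it was not (log2 0.56, adjusted p = 0.061). Against C0 replicates 7 to 9 alone, the calls in X1, S1 and S4 were lost (log2 0.54, 0.51 and 0.20, adjusted p = 0.10, 0.14 and 0.58). No later group passed in the fit with all C0 livers. With the period as a covariate X10, X28, X44 and X72 did (log2 0.52, 1.06, 0.74 and 0.96, adjusted p = 0.012, 0.00015, 0.0049 and 0.00039). X4 was called with scaling to the same median (log2 0.71, adjusted p = 0.013), X4 and X28 without C0 replicate 7 or 8, X28 also without X28 replicate 3, and X10 without X10 replicate 3 (log2 0.51 to 0.86, adjusted p = 0.019 to 0.044). The unoperated C4 livers held 15.2, 20.1 and 17.1, and X4 and S4 differed from them by 0.07 and 0.14 on the log2 scale.

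Atf3, a stress-induced ATF protein that represses many promoters as a homodimer, had the largest log2 difference from C0 of the 7 tested. In C0 its lowest, median and highest RPKM were 0.131, 0.333 and 0.794. In S1 they were 2.24, 4.78 and 12.0 and in X1 4.62, 11.9 and 17.7, with every S1 and X1 liver above every C0 liver. Atf3 rose 16.7-fold in X1 (log2 4.07 ± 0.31, adjusted p = 1.0e-16) and 8.13-fold in S1 (log2 3.02 ± 0.31, adjusted p = 4.8e-11). At 4 h it was lower again, with 1.55, 1.81 and 3.22 in X4 and 2.11, 1.95, 3.31, 1.92 and 2.64 in S4, and all 8 livers were still above C0.

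By 20 h the 3 sham livers (0.447, 0.170 and 0.756) were within the C0 range, and the X20 livers were split by number, with 2.22, 2.21 and 0.794 in replicates 1 to 3 and 0.391, 0.399 and 0.538 in replicates 4 to 6. The X20 call (log2 0.94, adjusted p = 0.0096) was lost without X20 replicate 1 or 2 (log2 0.72, adjusted p = 0.063 and 0.061). It was also lost with a pseudocount of 1 (log2 0.52, adjusted p = 0.054) and in the libraries numbered 4 to 6 (log2 0.61, adjusted p = 0.27). Against C0 replicates 7 to 9 alone, the calls in X20 and X48 were lost (log2 0.49 and 0.85, adjusted p = 0.34 and 0.082). Larger differences from C0 were measured in later post-PH groups. The X28 livers held 4.08, 4.06 and 1.13, the X36 livers 2.16 to 6.58 (median 3.98) and the X72 livers 4.65, 1.17 and 3.23, all above every C0 liver (log2 2.33, 2.77 and 2.30 against C0, adjusted p = 2.1e-06, 1.1e-11 and 1.7e-06). The 48 h sham livers held 0.615, 0.716 and 0.896 (log2 0.75 against C0, adjusted p = 0.19).

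The comparison of post-PH with sham livers of the same hour asks what the resection added to the surgery. At 1 h, 1 of the 7 members was called, where 0.65% of all genes were. Fosl2 was 1.84-fold higher in X1 than in S1 (log2 0.88, 95% confidence interval 0.53 to 1.22, adjusted p = 0.0016), with overlapping livers. Atf3 was 2.06-fold higher (log2 1.04, interval 0.35 to 1.73) and did not pass the adjustment over all genes (adjusted p = 0.18), while without S1 replicate 4 it did (log2 1.31, adjusted p = 0.035). For Fos, Fosb, Jun, Junb and Jund the log2 differences were 0.74, 0.05, 0.44, 0.35 and 0.03, with adjusted p between 0.63 and 1.

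At 4 h none of the 7 passed, where 8.64% of all genes were called, and 1 (Fosl2) had an unadjusted p under 0.05. The largest value was that of Fos (log2 1.04, interval -0.04 to 2.12, adjusted p = 0.21). At 10 h none passed (7.02% of all genes), and 1 (Jun) had an unadjusted p under 0.05, with a log2 difference of 0.94 (interval 0.19 to 1.68, adjusted p = 0.091). With the period as a covariate Jun passed at 10 h (log2 1.08, adjusted p = 0.047). At 20 h 2 were called (7.11% of all genes), Fosl2 1.75-fold and Jun 2.43-fold higher in X20 than in S20 (log2 0.80 ± 0.21 and 1.28 ± 0.37, adjusted p = 0.0074 and 0.015). Without S20 replicate 1 neither passed (adjusted p = 0.054 and 0.088), and without S20 replicate 2 Jun did not (log2 1.01, adjusted p = 0.14).

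At 48 h, where 27.2% of all genes were called and the median gene was higher by 0.27 on the log2 scale in X48, the called member was lower. Junb in X48 was 0.50 of its level in S48 (log2 -1.0 ± 0.42, adjusted p = 0.045), and no liver overlapped. This call was lost without any of S48 replicates 1 to 3 or without X48 replicate 1 or 3 (log2 -1.04 to -0.83, adjusted p = 0.082 to 0.12). Fosl2 was also lower in X48, by a log2 difference of -0.41 that did not pass (adjusted p = 0.12), and with all libraries scaled to the same median it did (log2 -0.82, adjusted p = 0.0024). Under that scaling the differences of Fos, Jun and Jund at 48 h turned from 0.31, 0.24 and 0.03 to -0.03, -0.19 and -0.41, none of them called.

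**Figure D3:**
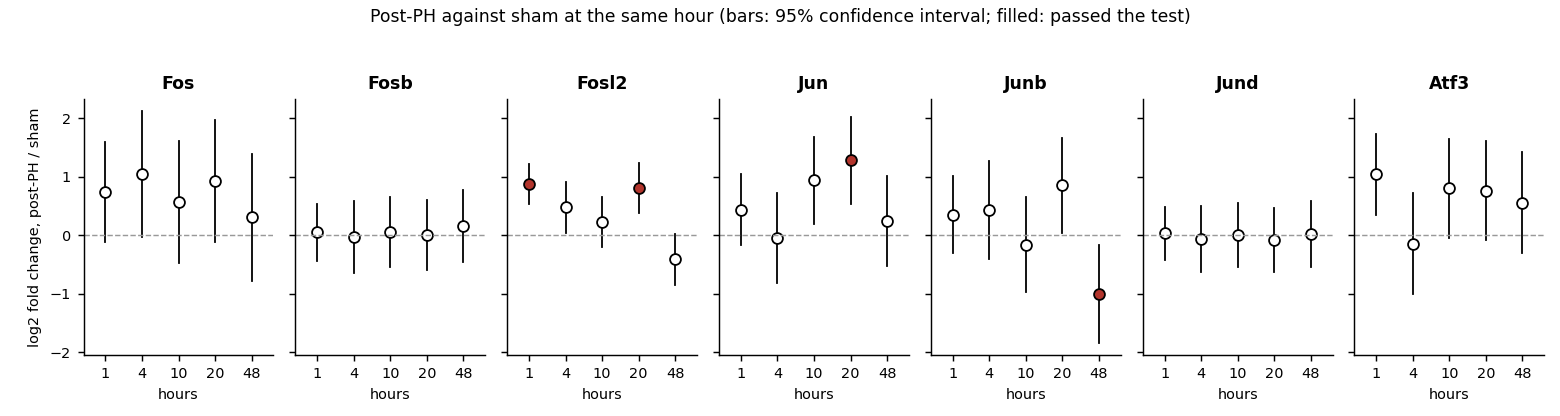
Log2 fold change of post-PH over sham livers at the 5 hours with both groups, for the 7 members tested; bars are 95% confidence intervals and filled points passed the test. Fosl2 passed at 1 and 20 h and Jun at 20 h above 0, and Junb passed at 48 h below 0.

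The change of the PH-sham difference from each time to the next was tested directly. From 1 to 4 h, 4 to 10 h and 10 to 20 h no member passed (4.68%, 3.73% and 0.104% of all genes did). Atf3 from 1 to 4 h was the only member with an unadjusted p under 0.05 in these 3 (log2 -1.18, adjusted p = 0.24). From 20 to 48 h 2 passed (13.2% of all genes). The difference of Fosl2 fell by 1.22 on the log2 scale (± 0.31, adjusted p = 0.0031), from 0.80 to -0.41, and that of Junb fell by 1.86 (± 0.59, adjusted p = 0.021), from 0.85 to -1.0. The call of Junb was lost without S20 replicate 3 or S48 replicate 1 (adjusted p = 0.063 and 0.052) and with no filter (adjusted p = 0.057). The S20 livers are of the second period and both 48 h groups of the first, and with the period as a covariate the differences were -1.22 for Fosl2 and -1.89 for Junb (adjusted p = 0.0027 and 0.010).

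By two-sided exact permutation tests of each of the 8 members, with no adjustment, p was under 0.05 for 2 at 1 h (Fosl1 and Fosl2), where it was for 6.89% of all genes tested, for none at 4 h (20.7%), for 3 at 10 h (Fos, Jun and Atf3; 24.7%), for 2 at 20 h (Fosl2 and Jun; 24.5%) and for 1 at 48 h (Junb; 47.2%).

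The groups of 6 livers at 1 h bear replicate numbers 1 to 3 and 4 to 6, and the study operated on mice in groups of 3. By the order of numbers assumed above, the sets stand for the first and the second period. Their values are given as a description. Among the libraries numbered 1 to 3, Atf3 held 2.24, 4.59 and 2.50 RPKM in S1 and 11.3, 17.7 and 12.5 in X1. Among those numbered 4 to 6 it held 12.0, 4.97 and 5.33 in S1 and 5.10, 4.62 and 12.9 in X1. Sham and post-PH livers were apart in the first set and mixed in the second.

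Fit on the libraries numbered 1 to 3, the X1 livers were higher than the S1 livers for Fos, Fosl2, Jun and Atf3 (log2 1.85, 1.43, 1.37 and 2.10, adjusted p = 0.038, 1.1e-05, 0.020 and 0.0010). Fosb was also higher (log2 1.13), with no p-value given because it passed the filter only through S1 and X1 livers. Fit on those numbered 4 to 6, the differences of Fos, Fosl2, Jun and Atf3 were -0.36, 0.33, -0.49 and -0.02, and none of these passed. That of Fosb was -1.03, where S1 replicate 4 held 3.33 RPKM and the other 2 sham livers 0.832 and 0.798. Each set has 3 livers a group, and the difference between the sets was not tested. Junb and Jund had log2 differences of 0.50 and 0.20 in the first set and 0.21 and -0.14 in the second, none called. At 20 h, where the S20 livers are of the second period and were used with either set of X20 livers, so that only the second set shares their period, Fosl2 and Jun were higher in X20 with both sets (log2 0.67 and 1.38, then 0.94 and 1.19, all called), while Atf3 was called with the first (log2 1.48, adjusted p = 0.011) and not with the second (log2 0.05) and Junb with the second (log2 1.30, adjusted p = 0.015) and not with the first (log2 0.41).

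**Figure D4:**
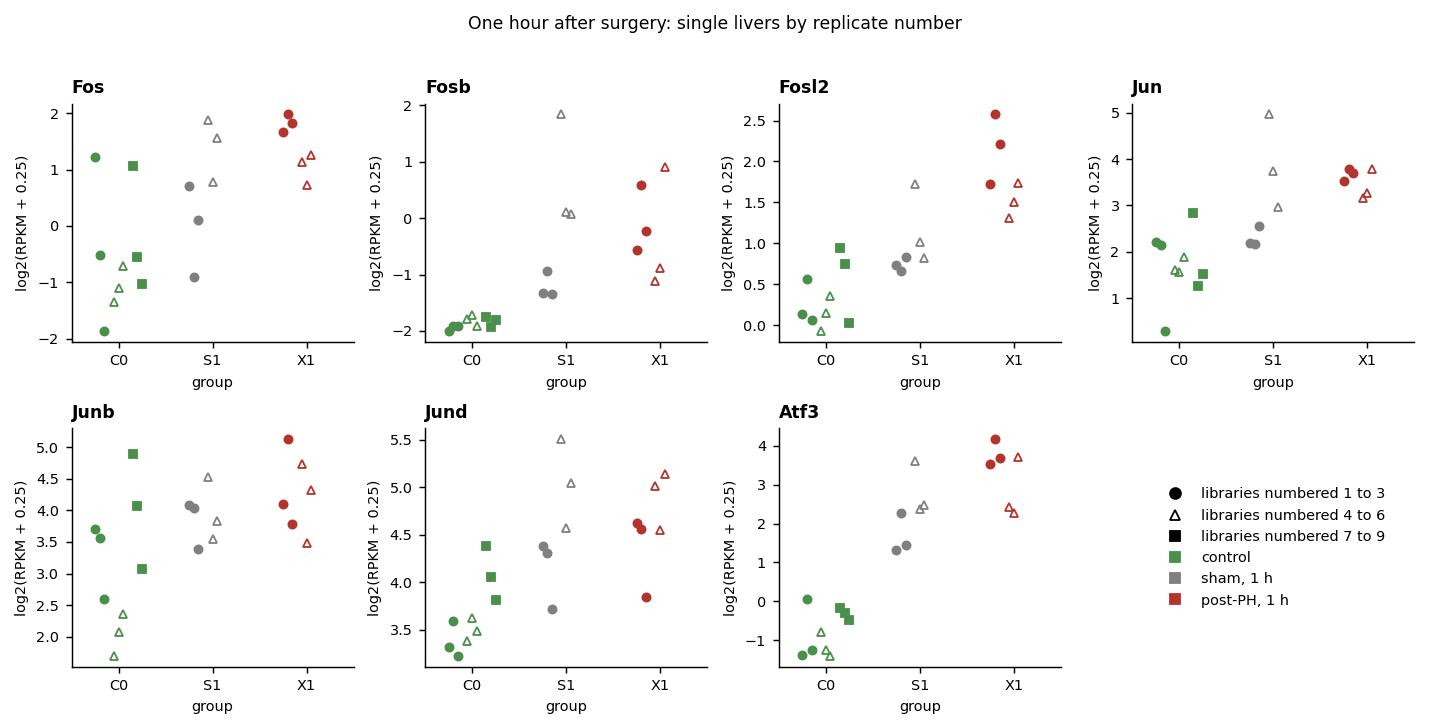
Level of the 7 members tested in single C0, S1 and X1 livers, as log2(RPKM + 0.25), with the marker shape giving the replicate numbers. For Fos, Fosb, Fosl2, Jun and Atf3 the X1 livers numbered 1 to 3 (filled circles) lie above the S1 livers of the same numbers, while the livers numbered 4 to 6 (open triangles) overlap or, for Fosb, are highest in S1 replicate 4 (3.33 RPKM).

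Because most groups were taken at another hour of the day than C0, comparisons at a shared hour were made. Unoperated livers at ZT6 (C4) gave no call against C0 among the 7 members (5.81% of all genes were called higher), although Junb, with 20.3, 12.8 and 16.2 RPKM in C4, had an unadjusted p under 0.05 (log2 0.92, adjusted p = 0.091) and was called without C0 replicate 7 or 8 (adjusted p = 0.021 and 0.044). C4 is of the third period, and against C0 replicates 7 to 9, assigned to the same period, Junb and Jund differed by 0.02 and 0.06 on the log2 scale (adjusted p = 1 and 0.99). Against C4, 4 members were called higher in S4 (Fosl2, Jun, Junb and Atf3; 12.2% of all genes), 5 in X4 (the same 4 and Fos; 11.7%) and 4 in X28 (Fos, Fosl2, Jun and Atf3; 14.4%). Junb against C4 had log2 differences of 1.47 in S4 and 1.90 in X4 (adjusted p = 0.0021 and 0.00045). None of the groups set against C4 shares its period, and with the period as a covariate these were 2.82 and 3.21 (adjusted p = 2.7e-05 and 8.7e-06), Junb was also called in X28 (log2 2.46, adjusted p = 0.0015) and Jund in S4 and X28 (log2 0.84 and 1.01, adjusted p = 0.031 and 0.033).

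Between 2 post-PH groups at a shared hour no member was called, while with the period as a covariate Jund was higher in X44 than in X20 (log2 0.77, adjusted p = 0.0078). These were X28 against X4 (22.6% of all genes called higher; no member with an unadjusted p under 0.05), X44 against X20 (12.9%; none) and X72 against X48 (2.23%; 1, Atf3, with a log2 difference of 1.00 and an adjusted p of 0.15, which passed without X72 replicate 2). X4W against C4W, with 2 livers each, gave no call among the members (0.0325% of all genes called higher, 1 member with an unadjusted p under 0.05).

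The other genes of the pathway were taken from fixed lists. Among MAP kinase phosphatases, which switch off the kinases that activate Fos, Jun and their regulators, 8 of 10 were tested, and in X1 6 rose and 1 fell against C0, where 13.5% of all genes were called in either direction. Dusp1 went from 4.08 to 10.8 RPKM in C0 (median 5.38) to 35.0 to 67.5 in X1 (median 57.4), a log2 rise of 3.12 ± 0.23 (adjusted p = 1.3e-17), and Dusp8 from 0.0119 to 0.160 to 1.47 to 2.20 (log2 2.66, adjusted p = 1.5e-18). Dusp7 fell by 0.74 on the log2 scale (adjusted p = 3.5e-07). In S1 5 of the 8 rose against C0, where 7.77% of all genes were called in either direction. Against S1, 4 of the 8 were higher in X1 and none lower, where 0.65% of all genes were called in either direction. Dusp4 held 1.86 to 6.06 RPKM in X1 and 0.706 to 1.64 in S1 (log2 1.38 ± 0.19, adjusted p = 1.5e-06). Dusp8 held 0.502 to 0.795 in S1 (log2 1.16 ± 0.20, adjusted p = 0.00025), below all X1 livers. At 4 h 2 were higher in X4 than in S4 (Dusp5, log2 1.44, and Dusp16, log2 0.57) and 1 was lower (Dusp7, log2 -0.56), where 8.64% of all genes were called.

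Of 25 other bZIP factors 24 were tested, and in X1 7 rose and 3 fell against C0 (13.5% of all genes were called in either direction). Maff, a small Maf factor without a transactivation domain, ran from 0.756 to 1.39 in C0 and from 4.93 to 12.2 in X1 (log2 2.71, adjusted p = 1.4e-14). Atf7 fell (log2 -0.85). Batf3 also fell (log2 -0.70), but it ran from 0.0436 to 0.160 RPKM in X1, below the filter in every X1 liver. In C0 it ran from 0.0911 to 1.38 (median 0.203). Its highest value of the series was in C0, so its passing the filter was not independent of this difference. Against S1, Maff alone was higher in X1 (log2 1.00, adjusted p = 0.036), where 0.65% of all genes were called. At 4 h none was higher in X4 than in S4 and 4 were lower, where 8.64% of all genes were called. Ddit3 (CHOP), a stress-induced bZIP factor that pairs with C/EBP proteins, held 1.08 to 1.72 RPKM in X4 and 5.98 to 8.11 in S4 (log2 -2.21 ± 0.30, adjusted p = 1.5e-07). Cebpa, which maintains hepatocyte gene expression, held 29.5 to 38.6 in X4 and 51.2 to 83.5 in S4 (log2 -1.18 ± 0.19, adjusted p = 3.8e-06).

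Of 22 MAP kinases, SRF and their partner factors, which act upstream of AP-1, 21 were tested, and 2 rose in X1 against C0, a share below the 13.5% of all genes called, Map3k5 (log2 0.98) and Srf (log2 0.65), the serum response factor that drives Fos in many cells. None was called between X1 and S1 by limma (4 had an unadjusted p under 0.05), where 0.65% of all genes were. Map3k8 was higher in X4 than in S4 (log2 0.63, adjusted p = 0.016), where 8.64% of all genes were called. Among genes known as AP-1 targets in other tissues, 11 of 16 were tested, and in X1 1 rose (Plaur, the urokinase receptor, log2 0.86) and 2 fell (Vim and Spp1, log2 -0.88 and -0.87) against C0, with no call against sham livers at 1 or 4 h (2 and 1 had an unadjusted p under 0.05). At 48 h 5 of the 11 were higher in X48 than in S48 (27.2% of all genes were called), with stellate cell markers summing to a median of 23.4 RPKM in X48 and 6.28 in S48, whose part was not tested.

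All 8 genes of the turnover of AP-1 proteins and mRNAs were tested. Of all genes, 13.5% were called in X1 against C0, 0.65% in X1 against S1 and 8.64% in X4 against S4. Zfp36 (tristetraprolin), which speeds the decay of short-lived mRNAs, was the only one to rise in X1 against C0 (20.6 to 48.6 RPKM in C0 and 46.9 to 72.2 in X1, log2 0.71 ± 0.17, adjusted p = 0.00062). Its relative Zfp36l1 was higher in X1 than in S1 (log2 0.74, adjusted p = 0.0064), and Zfp36 and Zfp36l2 were higher in X4 than in S4 (log2 0.74 and 0.81, adjusted p = 0.022 and 0.0072).

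Over the means of the 19 groups the members followed each other unequally. As a description, Pearson's r was 0.81 between Fosl2 and Junb, 0.80 between Jun and Atf3 and between Fos and Atf3 (0.804 and 0.795), 0.79 between Fos and Jun, and 0.049 between Fosb and Junb. The group means share the same libraries for every gene. The genes outside the family most like each member, among 11555 with a group mean above 1 RPKM, were Btg2 (r = 0.875), Egr1 (0.827) and Gja4 (0.820) for Fos, Errfi1 (0.892), Egfr (0.883) and Scara5 (0.882) for Fosl2, and Dusp8 (0.889), Srrm4 (0.885) and Tbc1d15 (0.867) for Jun. For Junb they were Egfr (0.866), Gm9847 (0.859) and Adcy1 (0.852), for Jund Maff (0.879), Snora73b (0.819) and Rcl1 (0.803), and for Atf3 Atl2 (0.869), Ifrd1 (0.853) and Atp1b1 (0.850). For Fosb, Ppp1r3g (0.902) and Trp53inp1 (0.899) came first, but Spearman's rho was 0.177 and 0.160, so the likeness rested on the S1 and X1 means.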

How the data were processed

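RNA-Seq of poly(A) RNA from single livers was analysed in 80 libraries of 19 groups. Per the study's methods, the authors trimmed reads with Cutadapt and prinseq-lite, mapped them to mm9 with TopHat 2.0.13 and Bowtie2, sorted them with SAMtools 0.1.19, assigned them by strand to Ensembl genes with featureCounts, with reads of several positions shared among these, and deposited log2 RPKM values. In the deposited log2 values no reads are listed at -14.29 (52.9% of values). No spike-in was used, so values are relative to the library, and shared reads can move genes with close copies.

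The members and all gene lists were chosen with earlier results of these data known. 4 value columns that match no labelled sample were not used, and 7 labelled samples, among them the group of 60 h, were not analysed here. Groups follow the labels. Replicates are separate livers.

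From the RPKM values, log2(RPKM + 0.25) was fitted with limma 3.58.1 (trend, R 4.3.3), all 19 groups in 1 model and no covariate, and p-values were Benjamini-Hochberg adjusted over the 15396 genes with a log2 RPKM above -1.5 in at least 1 library. Errors are standard errors and intervals are 95%. The fit was tested on simulated data. Replicate numbers did not pair sham and post-PH livers: of 17 pairs, 3 had a correlation of deviations above 0.1 (-0.19 to 0.27). Estimated reads rest on the smallest step of low values and on GENCODE exon lengths. A median of 83.1% of low values came out whole within 0.05 reads, so no count test was run.

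Genes named beside the 8 members are, for each pathway list, up to 2 that rose and 2 that fell most in X1 against C0 and in post-PH against sham at 1 and 4 h, and, for each member, the 3 with the highest Pearson r of group means. Alternatives were pseudocounts of 0.05 and 1, other filters, scaling to a common median, no trend, a replicate block, fits on the compared groups or on single replicate sets, exact permutation tests and each library left out, and, added after the data had been seen, the period of surgery as a covariate. The values of 1 gene that these rules also name are not reported here.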

Additional observations from a re-analysis of the deposited data

Results flagged for a closer look

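Within a group, 3 of 56 tests of a highest or lowest liver were past the 95% critical value of Dixon's ratio, about what chance gives at 1 in 20. Fos in X36 replicate 1 was 7.83 RPKM, where the other 5 X36 livers held 0.553 to 1.60. Fosb in S4 replicate 3 was 0.0968 RPKM (13 estimated reads), the highest of the 5 S4 livers. Fosl2 in S1 replicate 4 was 3.07 RPKM against 1.33 to 1.77 in the other 5, and the same library held the highest S1 values of Fos (3.45), Fosb (3.33), Jun (30.9), Junb (22.7), Jund (45.1) and Atf3 (12.0).

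The PH-sham difference changed between 20 and 48 h for Fosl2 (log2 -1.22, limma, adjusted p = 0.0031) and for Junb (log2 -1.86, adjusted p = 0.021). For Fosl2 every S20 liver was below every X20 liver, and for Junb every S48 liver was above every X48 liver.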

How the results depend on the processing

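Counts of called members summed over the comparisons with C0, over PH against sham and over the same-hour comparisons stayed within 1.5 times of the reported ones under other pseudocounts, filters, scaling and no trend. In single groups against C0 they moved further: the 5 calls in X44 became 3 with no filter (Fos and Junb lost) and 2 with scaling to the same median (Fosl2 lost as well), the 3 in X72 became 5 with the period as a covariate, and the 1 in X1W became 0 with a pseudocount of 1, with no filter, with scaling and with the period. The 0 from X44 against X20 became 1 with the period. For sham against C0, 17 calls became 11 against C0 replicates 7 to 9 alone, Junb lower in S20 among them. For PH against sham, 4 calls became 10 in the libraries numbered 1 to 3 and 2 to 6 with a library left out. By time, the 1 call at 1 h became 5 in the libraries numbered 1 to 3 (Fosb, which passed the filter only through S1 and X1 livers, among them), 0 in a fit on the 2 groups alone and 1 to 2 with a library left out. The 0 at 4 h became 1 (Fosl2, log2 0.66, adjusted p = 0.014) when the S4 libraries numbered 1 to 3 were set against the X4 libraries, which are numbered 4 to 6. The 0 at 10 h became 1 in a fit on the 2 groups alone and with the period as a covariate, and the 2 at 20 h became 0 to 2 with a library left out. The 1 at 48 h became 0 with no filter, 2 with scaling to the same median and 0 to 1 with a library left out. The 2 changes of the PH-sham difference became 1 to 2 with a library left out. The 23 calls of pathway genes in X1 against C0 became 15 in the libraries numbered 4 to 6. The 6 in X1 against S1 became 3 with no filter, 2 in a fit on the 2 groups alone, 14 and 3 in the libraries numbered 1 to 3 and 4 to 6, and 3 to 7 with a library left out, and the 11 in X4 against S4 became 6 in a fit on the 2 groups alone and 6 to 12 with a library left out. The cause was not tested, except that fits on sets of numbers or on 2 groups hold fewer samples. In the sets, only C0, S1, S4, X1, X10, X20 and X36 were split, and all other groups, X4 among them, kept all their libraries.

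The difference of Junb in S1 against C0 turned from 0.78 to -0.11 with C0 replicates 7 to 9 alone, and that of Fosb in X1 against S1 from 0.05 to -1.03 in the libraries numbered 4 to 6. With a replicate block, 48 in place of 41 calls post-PH and 19 in place of 17 after sham surgery were made, and 4 against sham as before, with Jund gained in X4, X10, X28, X44, X72, S10 and C4 and Junb in X20, X36, X72 and C4. With the period as a covariate they were 47, 18 (Jun gained in S48 and Atf3 in S10, Jun lost in S10) and 5, and 17 in place of 13 in the same-hour comparisons. The numbers do not pair the livers. Fosb and Fosl1 rest on few reads, and their differences outside the 1 h groups were not detectable at this depth.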
